A study of Homo sapiens with 6 samples.

Results

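The Aurora and Polo kinases, their activators and the chromosomal passenger complex were followed here in LNCaP cells, a human prostate cancer cell line, by RNA sequencing. The 10 genes were chosen by name and make up 10 of the 63299 genes in the count table: AURKA and its activator TPX2, the 4 passenger complex genes AURKB, INCENP, BIRC5 and CDCA8, PLK1 and its cofactor BORA, PLK4 and NEK2. One group of 3 libraries, called knockdown here, came from doxycycline-treated cells in which a short hairpin RNA lowers MEP50, the partner of the arginine methyltransferase PRMT5. The other group of 3 libraries, called control, came from LNCaP cells with no doxycycline and no knockdown. The labels give no treatment time, hairpin sequence or clone, and do not state whether the control cells carry the hairpin uninduced. No library with doxycycline and no hairpin against MEP50 was analysed here, so an effect of the drug and an effect of the knockdown cannot be told apart.

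Cell division is run by a small set of kinases, several of which build up in G2 and are destroyed as cells leave mitosis. Aurora A, bound by TPX2, builds the spindle, and with BORA it switches on Polo-like kinase 1, which matures centrosomes and drives entry into mitosis. Aurora B works inside the passenger complex, in which INCENP is the scaffold and survivin (BIRC5) and borealin (CDCA8) anchor the complex to centromeres and later to the midzone. PLK4 starts the building of a new centriole, and NEK2 loosens the link between centrosomes before they part. The transcripts of these genes peak late in the cycle, so in bulk RNA a smaller share of cells in G2 and mitosis and less RNA in each such cell cannot be told apart.

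Library totals ranged from 18568002 to 36234784 counts on genes, and each of the 10 genes had between 48 and 4918 reads per library. The hairpin's target, WDR77 (the gene of MEP50), fell in knockdown from 44.4 ± 6.73 to 13.9 ± 1.16 CPM, the usual depth-scaled count (mean ± SD, n = 3 libraries per group), a log2 fold change of -1.67 (edgeR quasi-likelihood test, adjusted p 0.00131). Prostate luminal markers were abundant in every library, and of the basal, fibroblast and leukocyte markers KRT5 had no read in any library while COL1A1 alone had a mean above 2 CPM in a group. Summed over their lists these markers reached at most 1.14, 16.4 and 1.27 CPM in any library. Of the 5 of these markers with enough reads to be tested, LYZ, the lysozyme gene of myeloid cells, was called higher in knockdown (0.13 ± 0.013 CPM in control and 0.90 ± 0.24 in knockdown, log2 fold change 2.75, adjusted p 0.0059), also whichever library was left out. KRT14, a basal keratin, was called lower (0.85 ± 0.23 CPM in control and 0.076 ± 0.13 in knockdown, log2 fold change -3.60, adjusted p 0.0338), with 20, 20 and 39 reads in control against 0, 0 and 5 in knockdown. That call was kept only without control replicate 2 or knockdown replicate 3 (adjusted p up to 0.118). The fibroblast collagen COL3A1 was not called in this fit (log2 fold change 2.05, adjusted p 0.223). It was called higher with the block described below (adjusted p 0.0020), without control replicate 1 (0.0437) and with no filter on low counts (2.02e-05). The summed level of the 10 luminal markers ranged from 4341 to 4926 CPM in knockdown and from 7445 to 8797 CPM in control. Of these 10, 4 were called lower, and 6 with the block, where 4.88% and 14.9% of all tested genes were called lower. The part of these marker shifts in the results on mitotic genes was not tested. Library replicates carry the numbers 1 to 3 in both groups, and libraries with the same number deviated from their group means together, so an edgeR fit with the number as a blocking term was also run, and its value is given wherever it changed a call.

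All 10 genes were about 2-fold lower in knockdown, and none was higher. The log2 fold changes, knockdown minus control, ran from -0.82 for BORA to -1.38 for INCENP, with a median of -1.14 against 0.00 over all 21101 tested genes. A gene is called changed below when its Benjamini-Hochberg adjusted p over all tested genes was under 0.05. INCENP, PLK1 and NEK2 were called lower in edgeR, 3 of 10 (all 10 had an unadjusted p under 0.05, as did 24.7% of all tested genes), where 4.88% of all tested genes were called lower and 2.72% higher. With the replicate pairs as a block all 10 were called lower, where 14.9% of tested genes were called lower and 11.2% higher. Within each same-numbered pair every gene was lower in the knockdown library. The median log2 difference over the 10 genes was -1.01, -1.25 and -1.26 in pairs 1, 2 and 3. The 10 genes moved together over the libraries, so these are 3 pairs and not separate observations for each gene. The share of all tested genes that were lower in every pair was not counted. Leaving out knockdown replicate 1 raised the 3 calls to 9, and leaving out knockdown replicate 2 ended all of them. A single call, INCENP, was left after removal of knockdown replicate 3 or of control replicate 1 or 2, and INCENP and PLK1 were left after removal of control replicate 3. The shares of all tested genes called lower in these fits were 3.73% and 1.52% without knockdown replicates 1 and 2, 2.05% without the third, and 2.22%, 4.28% and 2.97% without control replicates 1 to 3. All 10 were called in DESeq2 (7.25% of all tested genes lower) and in edgeR with no filter on low counts (4.41%), 4 in limma-voom (4.98%) and 3 with RLE scaling (4.49%).

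**Figure D1:**
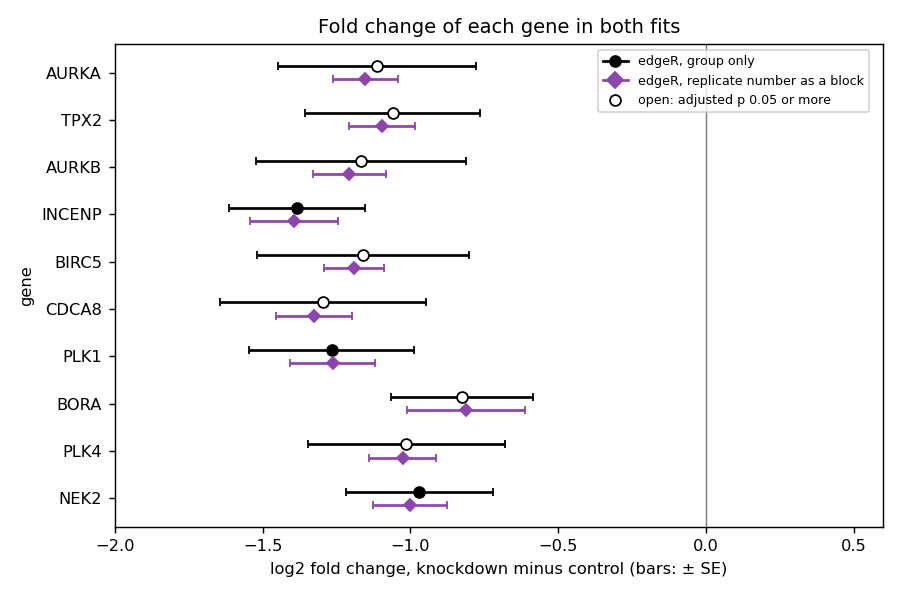
Log2 fold change (knockdown minus control, horizontal axis, bars ± SE) of the 10 genes in the edgeR fit by group alone (circles) and in the fit blocked by replicate number (diamonds), filled where the adjusted p was under 0.05. The estimates nearly coincide in both fits, from -0.82 to -1.38 by group alone, while the standard errors are smaller with the block.

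AURKA, the spindle and centrosome kinase (ENSG00000087586.17, hg38 chromosome 20, 56369389 to 56392337), had 47.7, 32.2 and 18.9 CPM in knockdown replicates 1 to 3 and 96.5, 68.3 and 48.8 CPM in control replicates 1 to 3. The groups did not overlap, but the highest knockdown library lay only 1.04 CPM below the lowest control library. Its log2 fold change was -1.11 (standard error 0.34, adjusted p 0.078), and with the block -1.15 (standard error 0.11, adjusted p 1.32e-05). AURKA has a processed pseudogene, AURKAPS1, that held 4 to 28 reads per library, so a few reads could be shared with it.

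TPX2, which binds microtubules and holds Aurora A in its active form (ENSG00000088325.15, chromosome 20, 31739271 to 31801805), had the highest level of the 10 genes. It stood at 99, 67.6 and 44.1 CPM in knockdown and 175, 164 and 100.3 CPM in control. The groups came within 1.32 CPM of each other without overlapping. The log2 fold change was -1.06 (standard error 0.30, adjusted p 0.0624), and the block fit gave -1.09 (adjusted p 2.05e-05). Per base of annotated exon TPX2 stood at 1.69 times AURKA in control and 1.76 times in knockdown (geometric means). The log2 difference of 0.06 between groups was smaller than the SD of 0.20 within control libraries (exact permutation test, two-sided, p = 0.7).

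Of the passenger complex, the scaffold INCENP (ENSG00000149503.12, chromosome 11, 62123973 to 62153163) had the lowest log2 fold change of the 10 genes and the widest gap between groups. Knockdown libraries had 33.1, 21.9 and 20.5 CPM, and control libraries had 66.4, 80 and 50.1 CPM. The highest knockdown library was 16.98 CPM below the lowest control library. INCENP fell to 38.4% of control (log2 fold change -1.38, standard error 0.23, adjusted p 0.0103, edgeR). It was called in 5 of the 6 fits that left out 1 library, the exception being knockdown replicate 2 (adjusted p 0.0561).

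AURKB, the complex's kinase (ENSG00000178999.12, chromosome 17, 8204733 to 8210600), had 23.8, 15.7 and 9.07 CPM in knockdown and 48, 37.9 and 23 CPM in control. Knockdown replicate 1 stood above control replicate 3, so the groups overlapped although each pair differed in the same direction. The log2 fold change was -1.17 (standard error 0.36, adjusted p 0.0796), and with the block -1.21 (standard error 0.12, adjusted p 2.00e-05).

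BIRC5, the gene of survivin (ENSG00000089685.14, chromosome 17, 78214186 to 78225636), showed the same overlap. Its levels were 82.7, 57 and 31.6 CPM in knockdown and 171, 133 and 77.7 CPM in control. Its log2 fold change was -1.16 (standard error 0.36, adjusted p 0.0834), and in the block fit it had the smallest adjusted p of the 10 genes, 5.37e-06. CDCA8, the gene of borealin (ENSG00000134690.10, chromosome 1, 37692418 to 37709719), had 28.5, 14.4 and 12.5 CPM in knockdown and 61.5, 44.6 and 29.5 CPM in control. These groups were separated by 0.92 CPM. The log2 fold change of CDCA8 was -1.29 (standard error 0.35, adjusted p 0.0557), and with the block -1.33 (adjusted p 1.46e-05).

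No shift in the balance among the 4 passenger complex transcripts was detectable with 3 libraries a group. Per base of annotated exon, in control, AURKB stood at 1.08 times INCENP, CDCA8 at 1.22 times and BIRC5 at 2.21 times. In knockdown these ratios were 1.22, 1.27 and 2.53. The log2 ratios differed between groups by 0.18 for AURKB, 0.06 for CDCA8 and 0.20 for BIRC5, with SDs within a group from 0.26 to 0.42 and overlapping ranges (exact permutation tests, two-sided, p = 1, 0.7 and 0.8). Over all 5 partner ratios examined, the TPX2 and BORA ratios included, the adjusted p was 1, and 3 libraries against 3 cannot give a p below 0.1.

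PLK1, the Polo kinase of mitotic entry and exit (ENSG00000166851.14, chromosome 16, 23677656 to 23690367), had 32.1, 21.6 and 17.6 CPM in knockdown and 62.9, 71 and 37.5 CPM in control. All knockdown libraries were at least 5.35 CPM below all control libraries. PLK1 fell to 41.6% of control (log2 fold change -1.27, standard error 0.28, adjusted p 0.0289, edgeR), and the adjusted p with the block was 4.47e-05. The call was kept without knockdown replicate 1 or control replicate 3 and lost without any other library (adjusted p up to 0.118). An antisense gene that lies over 641 bases of the PLK1 locus, CTD-2196E14.5, had 68, 63 and 37 reads in knockdown and 203, 221 and 139 in control. It was called lower too (log2 fold change -1.47, adjusted p 0.0473). The strand setting of the counting is not given in the sources used here, so reads of PLK1 and of this gene may not have been told apart. ERN2 also overlaps PLK1 on the opposite strand, over 59 bases, and had 4 to 13 reads per library, too few to be tested.

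BORA, the cofactor through which Aurora A activates PLK1 (ENSG00000136122.15, chromosome 13, 72727749 to 72756198), was by far the least abundant of the 10 genes and the least lowered. It had 2.78, 3.14 and 2.20 CPM in knockdown, from 52, 116 and 48 reads, and 5.94, 4.23 and 4.31 CPM in control, from 153, 127 and 151 reads. The groups did not overlap, and unlike the 9 other genes BORA was not highest in knockdown replicate 1 among the knockdown libraries. Its log2 fold change was -0.82 (standard error 0.24, adjusted p 0.0708), and with the block -0.81 (standard error 0.20, adjusted p 0.00988). In pair 2 the difference was -0.42, the smallest of any of the 10 genes in any pair. Per base of annotated exon, the ratio of BORA to PLK1 was 0.13 in control and 0.17 in knockdown. The log2 difference was 0.43, with SDs of 0.49 in control and 0.38 in knockdown (exact permutation test, p = 0.4). BORA overlaps DIS3 on the opposite strand over 4030 bases, and DIS3, with 466 to 1187 reads per library, was not called (log2 fold change -0.39, adjusted p 0.164). As the strand setting is not given, reads of BORA and DIS3 may not have been told apart. That limit bears on the level, fold change and ratio given here for BORA.

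PLK4, the kinase of centriole duplication (ENSG00000142731.10, chromosome 4, 127880861 to 127899195), had 26.1, 17.5 and 11.4 CPM in knockdown and 51.1, 35.3 and 24.3 CPM in control. Knockdown replicate 1 exceeded control replicate 3, so these groups overlapped. The log2 fold change was -1.01 (standard error 0.33, adjusted p 0.0973), the largest adjusted p of the 10 genes, and with the block -1.03 (standard error 0.11, adjusted p 3.91e-05). RNU6-583P, a small nuclear RNA pseudogene within PLK4, had 1 to 11 reads per library and was not tested. NEK2, which acts at the centrosome link (ENSG00000117650.12, chromosome 1, 211658657 to 211675630), had 28.5, 23.5 and 14.5 CPM in knockdown and 52.8, 41.9 and 35.7 CPM in control. Its groups were 7.17 CPM apart. NEK2 fell to 51% of control (log2 fold change -0.97, standard error 0.25, adjusted p 0.0481, edgeR), and its adjusted p with the block was 8.88e-05. That call was kept only without knockdown replicate 1 among the fits that left out a library (adjusted p up to 0.136). Its processed pseudogenes NEK2P2 and NEK2P4 held at most 11 and 3 reads, and FDPSP8, a pseudogene that shares 1089 bases with the NEK2 locus, had 0 to 7 reads per library and was not tested.

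**Figure D2:**
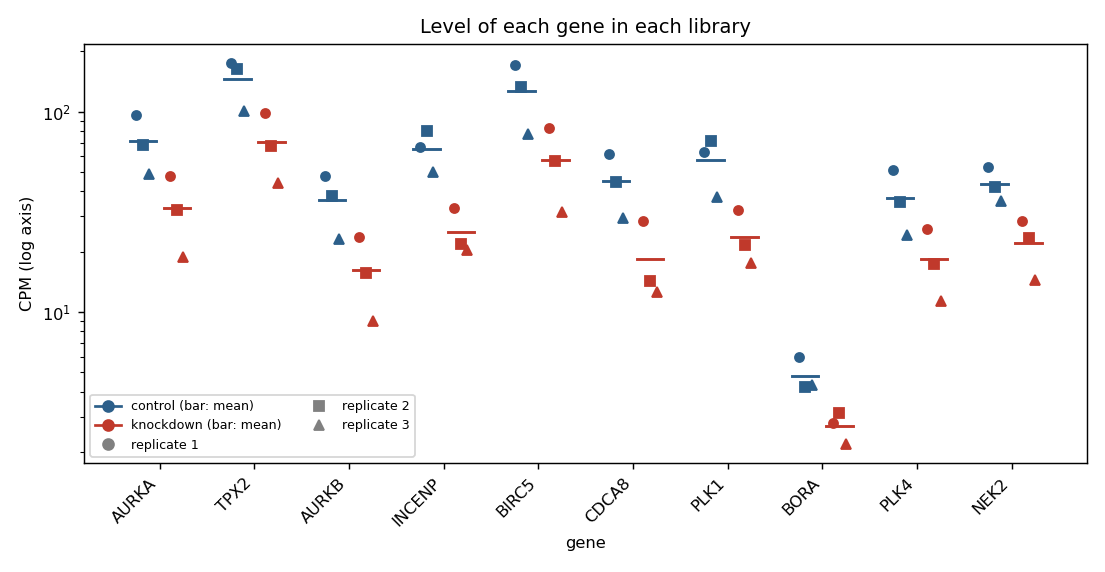
CPM (log axis) of each of the 10 genes in the 3 control libraries (blue) and the 3 knockdown libraries (red), with marker shapes for the replicate number and a bar at the group mean. In AURKB, BIRC5 and PLK4 the highest knockdown library lies above the lowest control library, and in the other 7 genes the groups are apart.

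Group ranges were thus apart for 7 of the 10 genes, while 17% of all tested genes had knockdown libraries that all lay below all control libraries. The overlap in AURKB, BIRC5 and PLK4 came from the same 2 libraries, knockdown replicate 1 and control replicate 3. Set against each gene's mean over all 6 libraries on the log2 CPM scale, the median of the 10 genes was 0.95, 0.72 and 0.08 in control replicates 1, 2 and 3, and 0.04, -0.52 and -1.12 in knockdown replicates 1, 2 and 3. Knockdown replicate 3 was the lowest knockdown library for all 10 genes, and control replicate 3 was the lowest control library for 9 of them, BORA being the exception. The spread within each group was therefore about as wide as the distance between groups, and it was shared by the 10 genes. INCENP and PLK1 departed from this pattern in control, where replicate 2 was their highest library and replicate 1 was that of the 8 others.

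**Figure D3:**
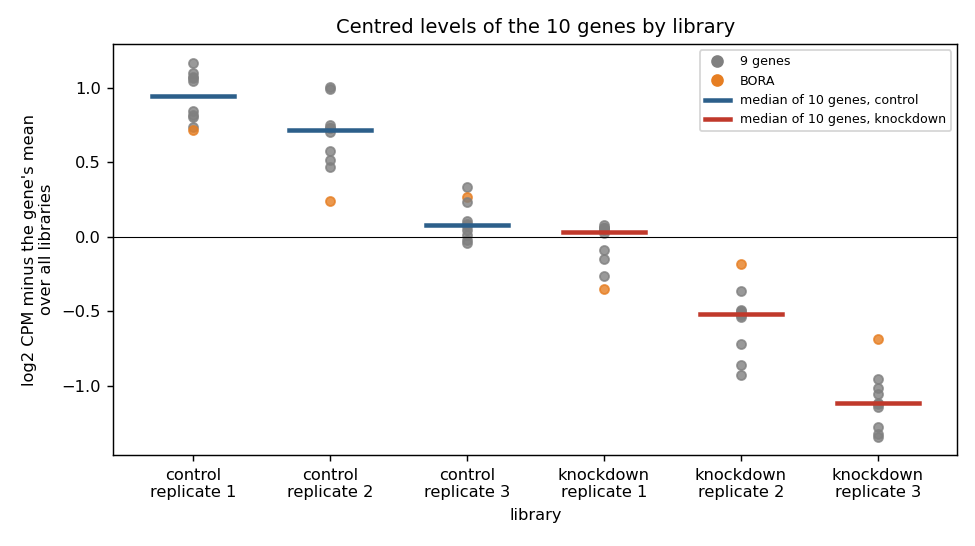
Log2 CPM of each of the 10 genes minus its own mean over the 6 libraries (vertical axis), by library, with BORA in orange and bars at the median of the 10 genes. The median is 0.08 in control replicate 3 and 0.04 in knockdown replicate 1, the 2 libraries where the groups meet.

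Levels between genes were compared as CPM per kilobase of annotated exon (RPKM). In control TPX2 was highest with 40.6 ± 11.2 RPKM, followed by BIRC5 with 33.4 ± 12.3 and AURKA with 24.3 ± 8.19 (SD, n = 3). CDCA8 (18.3), AURKB (16.2), INCENP (14.6), NEK2 (14) and PLK1 (12) lay close together, PLK4 had 8.23 and BORA 1.51 RPKM. Each gene's range over libraries overlapped that of the next in this order, except that PLK4 was above BORA in every library. In knockdown the order was the same but for INCENP and NEK2, which changed places with 5.62 ± 1.55 and 7.16 ± 2.29 RPKM, a difference within their overlapping ranges.

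The transcripts of late cell cycle genes are known to be controlled through 2 short promoter words, the cell cycle genes homology region (CHR), which LIN54 of the MuvB complex recognises, and the CCAAT box, bound by NF-Y. RefSeq promoters (GRCh38.p14, 250 bases before to 50 after the start site) matched 7 of the 10 genes: AURKB, INCENP, CDCA8, PLK1, PLK4, BORA and NEK2. TTTGAA, the CHR word searched, or its reverse complement TTCAAA, lay in 5 of the 10 promoter windows of these 7 genes, 1 window each in 5 genes, and in 15.2% of all 35116 windows. CCAAT or its reverse complement ATTGG lay in 8 of the 10 windows, at least 1 for each of the 7 genes, and in 34.6% of all windows. In CDCA8 the CHR word shares its last base with the CCAAT word that follows it, and a match describes the sequence only. The 30 bases around 1 match in each gene are shown 5′ to 3′ on the gene's strand with the match in capitals, so that the shared word and its distance from the start site can be compared.
INCENP, chr11:62123989-62124018, plus strand, match from base -10: tgagccttcagtTTTGAAaatcatagtttt
CDCA8, chr1:37692481-37692510, plus strand, match from base -23: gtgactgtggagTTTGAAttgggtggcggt
PLK1, chr16:23678848-23678877, plus strand, match from base -29: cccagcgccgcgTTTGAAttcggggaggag
BORA, chr13:72727734-72727763, plus strand, match from base -177: aggctgcgttgaTTTGAAtttggagccacg
PLK4, chr4:127880913-127880942, plus strand, match from base 38 (reverse complement): ggcaagcggcgggagattTTCAAAatggga
AURKB, chr17:8210361-8210390, minus strand, CCAAT match from base -129 (reverse complement): accagcgcccagATTGGggctagtgtgctg
NEK2, chr1:211675638-211675667, minus strand, CCAAT match from base -34: gcccaccgcctgCCAATagactgcgagatc

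TTTGAA began within the last 29 bases before the RefSeq start site in INCENP, CDCA8 and PLK1. In BORA it began 177 bases before the RefSeq start site of its window. These distances depend on the start used. The bases shown for BORA, 72727734 to 72727763, span the gene start given above, 72727749. Those shown for INCENP, CDCA8 and PLK1 lie after the gene starts given above (62123973, 37692418 and 23677656). In PLK4 the reverse complement began 38 bases after the start. NEK2 and AURKB held neither form in the windows searched. INCENP and CDCA8 each had 3 CCAAT words, NEK2 and BORA 2 each, and PLK1 1, at base -73. The CCAAT word of PLK4, at base -86, lay in the window of a different start site from that of its CHR word.

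**Figure D4:**
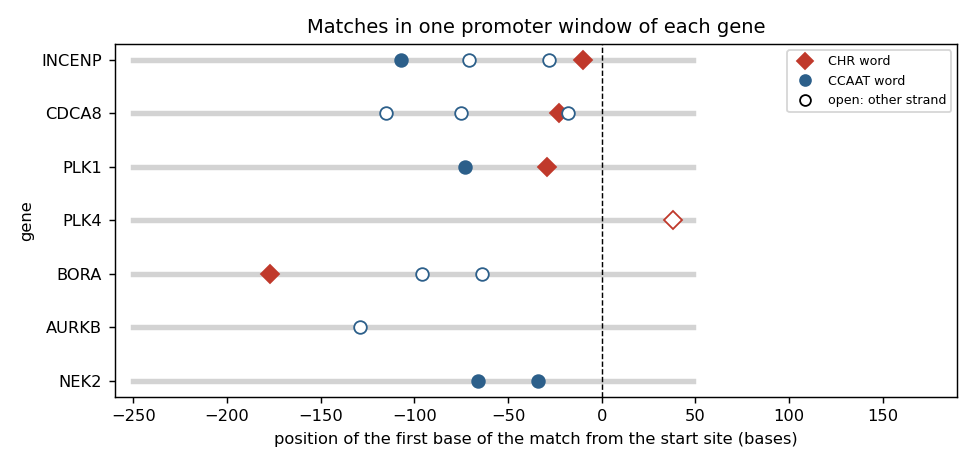
Positions of the CHR word (red diamonds) and the CCAAT word (blue circles) in 1 RefSeq promoter window of each of 7 genes, in bases from the start site (dashed line), open where the match is on the other strand. The CCAAT word of PLK4 lies in another of its windows and is not drawn. The CHR words of INCENP, CDCA8 and PLK1 start at -10, -23 and -29.

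The other kinases of the same families gave mixed values. Of the Aurora and Polo paralogs, PLK2, a Polo kinase of stress responses outside mitosis that p53 can induce, rose. It had 80.4, 116 and 120 CPM in knockdown and 39.5, 32.5 and 46.2 CPM in control, with no overlap. Its log2 fold change was 1.42 (standard error 0.19, adjusted p 0.00437, edgeR), and it was called whichever library was left out. PLK3 was 0.51 higher and was called only with the block (adjusted p 0.146, and 0.0349 with the block). AURKC, the germ cell Aurora, was under 1 CPM in every library and was not called (-0.29, adjusted p 0.713), and PLK5 had too few reads to be tested.

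Among the 10 other NIMA-related kinases 1 rose and 0 fell, with a median log2 fold change of -0.08, and with the block 3 rose and 1 fell. NEK11, linked to the DNA damage checkpoint, rose from 5.69 ± 0.56 to 12.8 ± 0.67 CPM (log2 fold change 1.17, adjusted p 0.00562, edgeR), and was called whichever library was left out. NEK6, which acts on spindle motors, was 0.48 lower (adjusted p 0.068, and 0.00468 with the block), and NEK10 was 0.80 higher (0.0812, and 0.0109 with the block).

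Genes that recruit the passenger complex or serve as its substrates had a median of -1.02 over 11 tested genes, with 2 called lower, 0 higher and 11 lower with the block. HASPIN, the kinase whose mark on histone H3 draws the complex to centromeres, fell from 19.6 ± 7.68 to 6.21 ± 1.99 CPM (log2 fold change -1.66, standard error 0.34, adjusted p 0.0211, edgeR). That call was lost without knockdown replicate 2 or 3 (up to 0.0882). KIF20A, the motor that carries the complex to the midzone, fell by 1.36 on the log2 scale (adjusted p 0.0414), a call lost without control replicate 1 or 2 or knockdown replicate 2 or 3 (up to 0.147). KIF2C, a microtubule depolymerase that Aurora B restrains, was 1.12 lower (adjusted p 0.052, and 8.67e-06 with the block).

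In the mitotic entry circuit around PLK1 the median of 12 genes was -0.77, with 2 called lower, 0 higher and 11 lower with the block. ARPP19, which blocks the phosphatase PP2A-B55 once phosphorylated, had 93.1, 69.4 and 67.5 CPM in knockdown and 417, 309 and 314 CPM in control. These groups were far apart. Its log2 fold change of -2.18 (standard error 0.18, adjusted p 0.000667, edgeR) was the lowest of the 70 tested companion genes, and it was called whichever library was left out. PKMYT1, a kinase that holds CDK1 inactive, fell by 1.47 on the log2 scale (adjusted p 0.0282), a call lost without control replicate 1 or 2 or knockdown replicate 2 or 3 (up to 0.0704). FBXO5, an inhibitor of the anaphase-promoting complex, was 1.21 lower (adjusted p 0.0557, and 2.84e-05 with the block).

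Partners of Aurora A on the spindle had a smaller median, -0.41 over 8 genes, with 0 called in edgeR, 4 at an unadjusted p under 0.05, and 5 lower with the block. TACC3 (-0.91, adjusted p 0.0664) and HMMR (-1.004, 0.077), which act with Aurora A at spindle microtubules, and the motor KIF11 (-1.002, 0.072) had the smallest p, and all 3 were called with the block. Of 7 centriole duplication genes 0 were called in edgeR, 2 had an unadjusted p under 0.05, and 2 were lower and 1 higher with the block, with a median of -0.31. Beside both lists, 24.7% of all tested genes had an unadjusted p under 0.05. With the block 14.9% of all tested genes were called lower and 11.2% higher. CEP152 and STIL, which recruit and activate PLK4, were 0.72 and 0.82 lower (adjusted p 0.0718 and 0.0993, and 0.000619 and 0.000139 with the block). SASS6, the centriole cartwheel protein, was 0.31 lower and was called in neither fit (adjusted p 0.414 and 0.0646).

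Among 5 mitotic kinases of other families the median was -1.13, close to that of the 10 genes, with 1 called lower and 5 with the block. MELK fell from 80.6 ± 25 to 31.8 ± 12.6 CPM (log2 fold change -1.34, adjusted p 0.0364, edgeR), a call lost without control replicate 1 or 2 or knockdown replicate 2 or 3 (up to 0.12). PBK was 1.22 lower and the checkpoint kinase BUB1B 1.03 lower, with adjusted p 0.0819 and 0.0846, and 1.10e-05 and 1.26e-05 with the block. Of the 4 genes of the anaphase-promoting complex pathway, through which Aurora kinases and PLK1 are degraded, 1 was called lower and 3 with the block. UBE2S, the E2 enzyme that lengthens ubiquitin chains, fell by 1.31 on the log2 scale (67.6 ± 17.3 to 27.2 ± 6.31 CPM, adjusted p 0.0124) and was called whichever library was left out. CDC20 was 1.10 lower and UBE2C 0.86 lower (adjusted p 0.0774 and 0.183, both called with the block).

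Among 10 regulators of mitotic genes 5 were called lower and 0 higher, with a median of -0.58, and 7 were lower with the block. MYBL2, the B-Myb factor that works with MuvB, had 29.3, 14.9 and 16.3 CPM in knockdown and 75.4, 82.3 and 46.8 CPM in control. Its log2 fold change was -1.76 (standard error 0.30, adjusted p 0.0104, edgeR), called unless knockdown replicate 2 was left out (0.0526). RBL1, the pocket protein p107, fell by 1.10 on the log2 scale (adjusted p 0.0208), and LIN54, which binds the CHR word shown above, by 0.75 (adjusted p 0.0241). Both calls were lost without control replicate 1 or knockdown replicate 2 or 3 (up to 0.0841 and 0.0915). Over all 71 companion genes 70 were tested, 11 were called lower and 2 higher, where 4.88% of all tested genes were lower and 2.72% higher. With the block 45 companion genes were lower and 6 higher, where 14.9% of all tested genes were lower and 11.2% higher.

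**Figure D5:**
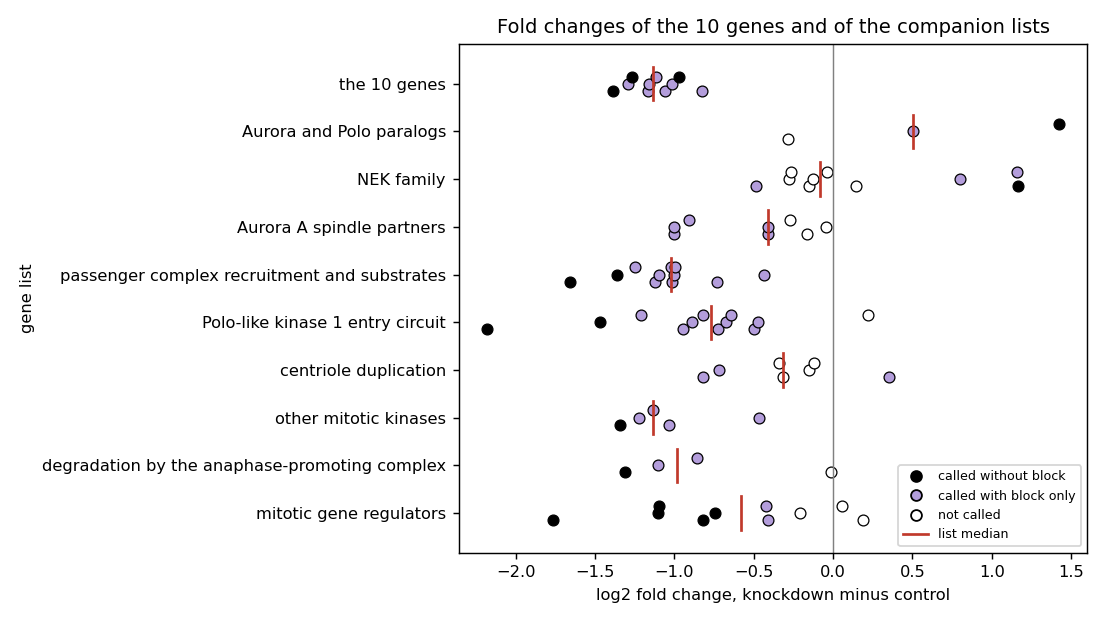
Log2 fold change (knockdown minus control, horizontal axis) of every tested gene in the 10 genes and in the 9 companion lists, black where called in the fit by group alone, violet where called only with the replicate block, and open where not called, with a red bar at each list's median. The 10 genes and the other mitotic kinases have medians of -1.14 and -1.13, and the NEK family has one of -0.08.

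The tested genes whose level over the 6 libraries was most like the mean of the 10 genes were HJURP, the chaperone of the centromeric histone CENP-A (Pearson r 0.999), the kinesin KIFC1 (0.998), FANCG (0.998), SNORD116-7 (0.997) and SKA3 (0.997), a kinetochore protein. These correlations run over 6 libraries in 2 groups and carry no test. Their log2 fold changes were -1.49, -1.17, -1.01, -1.10 and -1.31, and HJURP, KIFC1 and FANCG were called lower (adjusted p 0.0464, 0.0422 and 0.0447, edgeR). SNORD116-7 and SKA3 were not called by group alone (adjusted p 0.0594 and 0.0548) and were called lower with the block (0.00121 and 3.84e-05).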

How the data were processed

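The authors deposited raw counts, as whole numbers per gene, in 1 table of all 6 libraries. The submitters' processing notes name bcl2fastq, STAR 2.5, hg38, featureCounts of Subread 1.6.5 and edgeR 3.20.8. Gene lengths in bases are the other deposited values, per the file headers. The annotation release and strand setting are not given in the sources used here.

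The whole table was fitted with edgeR 4.0.16 in R 4.3.3 (TMM scaling, filterByExpr, two-sided quasi-likelihood F test, Benjamini-Hochberg over 21101 genes, threshold 0.05). The standard error is the log2 fold change divided by the root of F. CPM used TMM-scaled library sizes, and log2 CPM a prior count of 2. Alternatives were RLE scaling, no filter, DESeq2 1.42.0, limma-voom 3.58.1, a replicate block, and leaving out each library. The fits were tested on simulated data. More of the calls there fell on unchanged genes than the threshold allows, with and without the block. Changes of 1 on the log2 scale were often missed. The simulated counts held no effect shared by same-numbered libraries, so the block fit was not tested on paired data like these. Same-numbered libraries correlated in their deviations from group means (0.554, 0.381 and 0.358, against -0.39 to 0.06 for other pairs), so the numbers were taken to pair libraries. Deviations within a group cancel out, so positive values for same-numbered pairs push the other pairs down, and part of this contrast is built in. The design text calls them biological replicates but names no separate cultures, so p-values measure the spread between these libraries.

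The 10 genes and the companion lists were chosen with earlier results of these data known. Also named were WDR77, the paralogs, the 3 genes lowest in adjusted p from each of the other lists, the 5 most similar genes, and overlapping genes with reads. Near copies and marker genes were chosen after their values were seen. HASPIN is GSG2 in the file.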

Additional observations from a re-analysis of the deposited data

How the results depend on the processing

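The direction of all 10 genes was lower under every alternative run. The 3 calls of the main fit remained 3 with RLE scaling and were 4 in limma-voom, which added CDCA8. They became 10 in DESeq2, 10 without a filter on low counts and 10 with the replicate numbers as a block, and ranged from 0 to 9 when 1 library was left out. The median log2 fold change of the 10 genes ranged from -1.51 without knockdown replicate 1 to -0.85 without control replicate 1. The 11 lower companion genes became 29 in DESeq2, 37 without the filter and 45 with the block, and 2 to 23 when 1 library was left out. For both counts, the shares of all tested genes called lower in these fits are given in the Results. The 2 higher ones became 6 with the block and 3 in DESeq2, and were 2 to 3 when 1 library was left out. The shares of all tested genes called higher were counted only by group alone and with the block. When 1 library was left out, the log2 difference of the CDCA8 to INCENP ratio ranged from -0.084 to 0.30, negative without knockdown replicate 1 or without control replicates 2 (-0.072) or 3 (-0.033). That of TPX2 to AURKA ranged from -0.036, without control replicate 1, to 0.17. Those of AURKB to INCENP, BIRC5 to INCENP and BORA to PLK1 stayed positive, from 0.062 to 0.41, 0.058 to 0.44 and 0.16 to 0.64. The cause of these changes was not tested. BORA had the fewest reads of the 10 genes, 48 to 153 per library, and its standard error was the largest of the 10 with the block (0.20) but not by group alone (0.24).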
